A study of Homo sapiens with 4 samples.

Results

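The Frizzled receptors were described in QGP-1 cells, an established human line from a pancreatic neuroendocrine tumour, cultured with conditioned medium of pancreatic stellate cells, the matrix-producing mesenchymal cells of the organ. The members were all 11 probes assigned by the platform's probe table to 10 genes, FZD1 to FZD10, out of 28264 probes and 19090 named genes. FZD5 had 2 probes and every other gene had 1. The cells were kept for 24 h in RPMI-1640 with 0.1% fetal bovine serum, either with conditioned stellate cell medium (PSC medium, 2 arrays) or without it (mock, 2 arrays). Both groups were the same unmodified line. No label states that the 2 arrays within a condition were grown as independent cultures, so the spread between these arrays may be technical. Standard errors and p-values combine that spread with a variance shared over all probes. How the mock medium had been prepared is not given in the sources used here. The members were selected on gene name, and the family itself was chosen by a measured value, the difference between PSC medium and mock, which had been seen before, above all for FZD1.

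Frizzled proteins are multi-pass membrane receptors whose cysteine-rich outer domain binds the lipid chain of secreted WNT proteins. Together with LRP5 or LRP6 they act through Dishevelled proteins to stabilise beta-catenin, and some members work instead in planar cell polarity, which orients cells within a tissue. The ubiquitin ligases ZNRF3 and RNF43 remove Frizzled proteins from the cell surface, and R-spondins, bound to LGR receptors, hold these ligases back. By sequence the family falls into the branches FZD1, FZD2 and FZD7; FZD5 and FZD8; FZD4, FZD9 and FZD10; and FZD3 and FZD6.

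The 4 arrays had medians of 800 and 822 intensity units for PSC medium and 662 and 829 for mock. Intensities were quantile normalized between arrays, so levels are given on that log2 scale and differences are PSC medium minus mock, with the standard error of a limma fit over all 28264 probes. Pearson's r across probes, which are not independent replicates, was 0.986 within the PSC medium pair, 0.984 within the mock pair and 0.975 to 0.979 between groups. Of 11 probes for neuroendocrine markers, 8 lay above the median probe level. CHGA, the granule protein chromogranin A, had 111828 and 85329 units with PSC medium, against 94849 and 109107 units in mock. Other bright markers differed in both directions. CHGB had 0.39 ± 0.16 (SE) and SCG2 0.36 ± 0.17, while SST had -0.45 ± 0.18 and SCG3 -0.44 ± 0.21. Differences were positive for 5 probes and negative for 6. The groups did not overlap for 6 probes, against 53.6% of all probes. Of these 11 probes, for 9 genes, 0 passed an adjusted p of 0.05 in limma, against 0.633% of all probes. An unadjusted p under 0.05 was reached by 0 of them, against 21.8% of all probes. With so few probes these counts do not show that the markers were unchanged. Of 17 probes for 13 stellate and fibroblast markers, 1 lay above the median probe level, that of the collagen gene COL1A1. Their summed normalized intensity was 5669 and 6192 with PSC medium, against 5962 and 4861 in mock. Most of the PSC medium sum was the COL1A1 probe, with a geometric mean of 3740, so the sum says little about the other markers. None of the 17 probes was at the floor of 1. Of these 17 probes 1 passed, against 0.633% of all probes. It was the dim desmin probe (DES), which had a difference of -1.48 (adjusted p = 0.0465, limma).

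In QGP-1 cells the FZD1 signal with PSC medium was 0.321 of that in mock cells. The FZD4 and FZD3 signals were lower too, without passing the threshold over all probes, and the remaining members differed by at most 0.40 on the log2 scale in either direction. Because the family was chosen with this contrast in view, these differences are a description and no p is given for them. In limma, with Benjamini-Hochberg adjustment over all probes and a threshold of 0.05, the fit called 1 of 11 Frizzled probes, that of FZD1, against 0.633% of all probes called in either direction 0.248% called lower and 0.386% called higher. The median difference was -0.19 over the 11 probes and -0.01 over all probes, with 8 negative and 3 positive differences in the family. The arrays of the groups did not overlap for 6 of 11 Frizzled probes, 5 of them lower and 1 higher, against 53.6% of all probes, 28.2% lower and 25.4% higher.

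**Figure D1:**
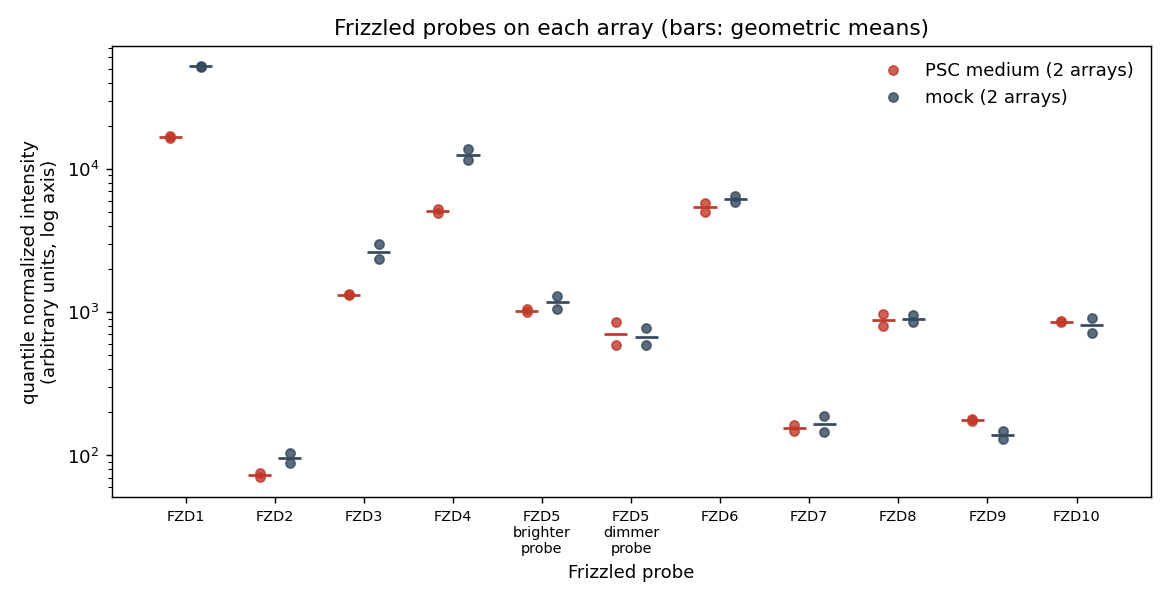
Quantile normalized intensity (arbitrary units, log axis) of each Frizzled probe on the 2 PSC medium arrays and the 2 mock arrays; points are arrays and bars are geometric means. FZD1, FZD3 and FZD4 show the widest gaps between the groups, with PSC medium lower, while heights of different probes are not comparable because probes differ in how they hybridise.

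FZD1, a WNT receptor of the beta-catenin branch, had intensities of 16981 and 17270 with PSC medium, against 43438 and 56373 in mock. Both PSC medium arrays lay far below both mock arrays, and the mock arrays came together only after normalization. On the normalized scale the level was 14.03 ± 0.04 with PSC medium and 15.66 ± 0.0012 in mock (SD, n = 2 each). The signal fell by 1.64 ± 0.15 (SE) on the log2 scale, which is 3.11-fold lower. This was the 155th most negative of 28264 differences, within the lowest 0.548%. The FZD1 standard error of 0.15 came mostly from the variance shared over all probes, since the SDs within the groups were far smaller. The call depended on the normalization. Without it the difference was -1.53 ± 0.24 (SE) and did not pass, while 172 probes (0.609%) were called. With median centring it was -1.66 ± 0.15 (SE) and did not pass, while 105 probes (0.371%) were called. With a replicate block, which called 2 probes, FZD1 did not pass either. FZD1 was also among the brighter probes, at percentile 96.4 of probe level. In bulk RNA of a culture, fewer cells with the transcript and less transcript per cell cannot be told apart. Leaving out an array ended the call each time, with 0 probes called in the whole table (3648 to 5504 at an unadjusted p under 0.05), while the FZD1 difference was -1.60 without PSC medium array 1, -1.67 without PSC medium array 2 and -1.64 without mock array 1 or mock array 2.

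FZD4 is the receptor for norrin in retinal vessels and also binds WNT proteins. Its intensities were 5405 and 4921 with PSC medium, against 11586 and 12683 in mock. The groups were separated by 1.12 on the normalized log2 scale, with levels of 12.32 ± 0.06 with PSC medium and 13.61 ± 0.18 in mock (SD, n = 2 each). The difference was -1.30 ± 0.17 (SE), a 2.46-fold lower signal, and lay within the lowest 1.07% of all probes. It did not pass over all probes, but it passed, as FZD1 did, when 1 probe per gene was tested, where 2.14% of genes were called. With an added constant of 50, without probes that touched the floor, without dim probes or with an intensity trend in the variance, FZD4 and FZD3 both passed, in settings that called 3.23% to 18.7% of all probes tested.

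FZD3 is known from mouse work for axon guidance and planar polarity. Its probe gave 1351 and 1394 with PSC medium, against 2005 and 3316 in mock. The PSC medium arrays were close to each other and below both mock arrays, which differed more. The levels were 10.37 ± 0.03 with PSC medium and 11.37 ± 0.25 in mock, and the difference was -1.0 ± 0.18 (SE), within the lowest 2.07% of all probes. Without mock array 2 the difference was -0.82, and without mock array 1 it was -1.17. FZD6, its nearest relative and a polarity receptor of hair and skin in mouse, did not share this shift. FZD6 had intensities of 5171 and 5764 with PSC medium, against 4992 and 7149 in mock, and a difference of -0.19 ± 0.16 (SE). Its normalized groups were only 0.01 apart.

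**Figure D2:**
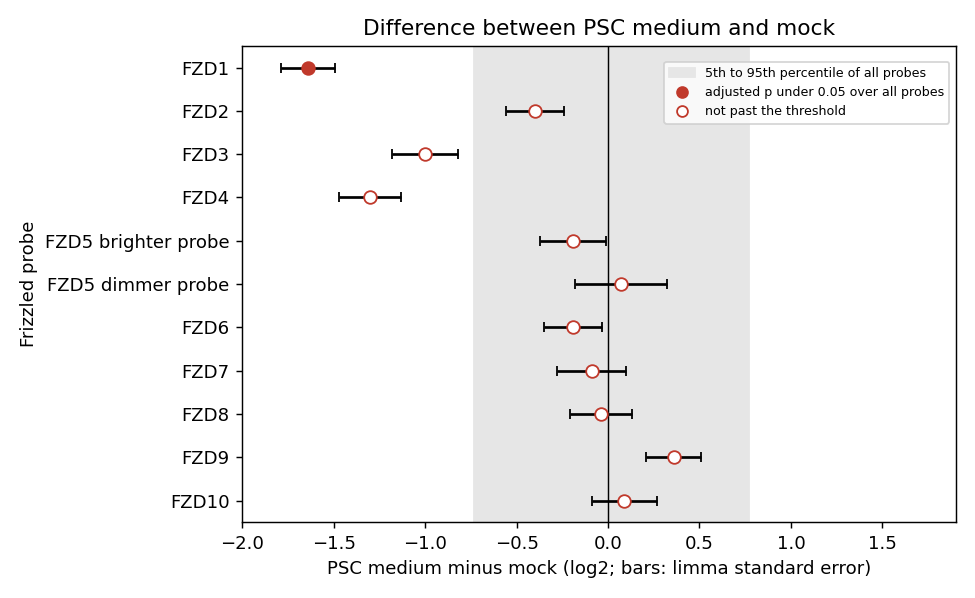
Difference between PSC medium and mock (log2) for each Frizzled probe with its limma standard error; filled points passed an adjusted p of 0.05 over all probes, and the grey band spans the 5th to 95th percentile of all probes, -0.73 to 0.77. FZD1, FZD4 and FZD3 lie below the band and the other 8 probes inside it.

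The other members of the FZD1 branch were dim. FZD2 gave 55 and 77 with PSC medium, against 104 and 94 in mock, at percentile 13.2 of probe level. Its groups did not overlap, with a difference of -0.40 ± 0.16 (SE), but dim probes were also where the arrays differed in background. In the deposited values, 848 and 175 probes were under 1 on PSC medium arrays 1 and 2, against 0 and 30 on mock arrays 1 and 2. The part of this background in the FZD2 value was not tested, and the difference was -0.25 with an added constant of 50, -0.60 without normalization and -0.73 with median centring. FZD7, a receptor of intestinal stem cells in mouse, gave 152 and 163 with PSC medium, against 136 and 197 in mock. Here the mock arrays enclosed the PSC medium arrays, and the difference was -0.09 ± 0.19 (SE). FZD1 and its close relatives share much coding sequence, and how far the FZD1 probe also takes up their transcripts was not tested.

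FZD5, a receptor of the gut epithelium, was measured by 2 probes that gave no common direction. Its brighter probe had 1091 and 1042 with PSC medium, against 1115 and 1126 in mock, and a difference of -0.19 ± 0.18 (SE). Its dimmer probe had 878 and 635 with PSC medium, against 502 and 824 in mock, and a difference of 0.07 ± 0.25 (SE). After normalization the groups overlapped for both probes. FZD8, the other member of that branch, had 820 and 1015 with PSC medium, against 729 and 1019 in mock. Its difference was -0.04 ± 0.17 (SE), smaller than its standard error.

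FZD9 was the member with the most positive difference. It is a receptor gene of the interval deleted in Williams syndrome. The probe gave 171 and 191 with PSC medium, against 126 and 156 in mock, with a difference of 0.36 ± 0.15 (SE). The groups did not overlap, but the probe was dim, at percentile 22.2 of probe level, and 82.4% of all probes had a difference at or below it. FZD10, from the same branch as FZD4 and FZD9, gave 879 and 911 with PSC medium, against 778 and 757 in mock. After normalization its groups overlapped, with a difference of 0.09 ± 0.18 (SE). Members of the FZD4 branch thus had differences of -1.30, 0.36 and 0.09.

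**Figure D3:**
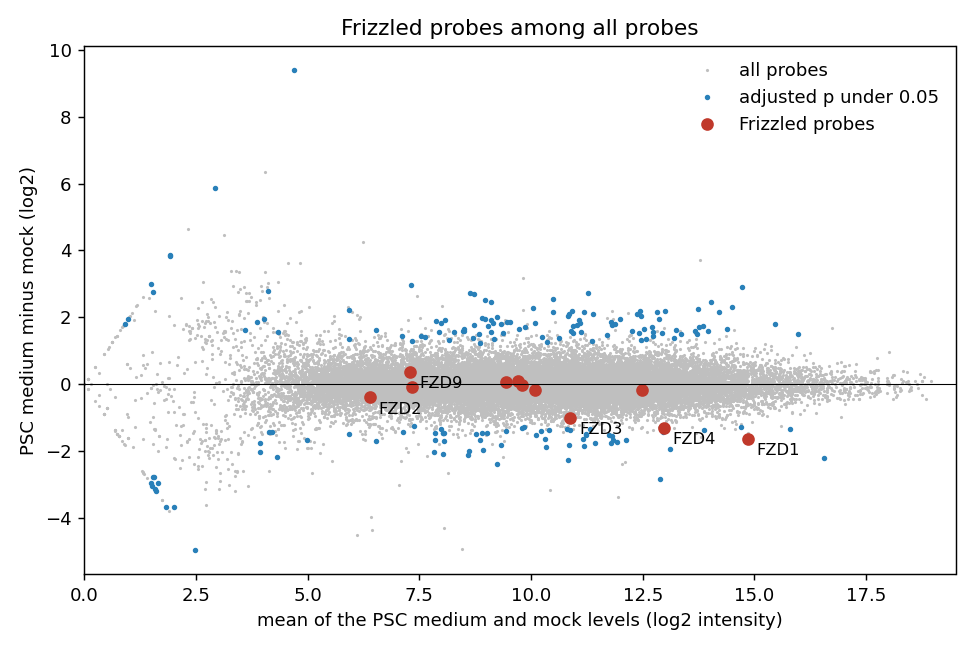
Difference between PSC medium and mock (log2) against the mean of both groups' levels (log2 intensity) for all 28264 probes; blue points passed an adjusted p of 0.05 and red points are the 11 Frizzled probes. FZD1, FZD4 and FZD3 lie at the lower edge of the cloud at medium to high level, while FZD2 and FZD9 lie within it at low level.

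The promoters of FZD1 and FZD4 are shown because these members had the widest gaps between the groups. They are RefSeq windows of GRCh38.p14 that run from 250 bases before the gene's start to 50 after it, and 5 of the 10 members had one. Capitals mark the core of the TCF/LEF site, CTTTG on either strand, which the nuclear partners of beta-catenin bind. The FZD1 window is chr7:91264183-91264482 on the + strand, and the FZD4 window is chr11:86955346-86955645 on the - strand.
FZD1: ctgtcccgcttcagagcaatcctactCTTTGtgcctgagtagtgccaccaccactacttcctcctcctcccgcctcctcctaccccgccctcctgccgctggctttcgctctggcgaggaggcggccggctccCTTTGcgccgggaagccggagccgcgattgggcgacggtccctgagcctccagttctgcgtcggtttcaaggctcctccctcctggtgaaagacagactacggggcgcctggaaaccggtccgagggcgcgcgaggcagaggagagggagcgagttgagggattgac
FZD4: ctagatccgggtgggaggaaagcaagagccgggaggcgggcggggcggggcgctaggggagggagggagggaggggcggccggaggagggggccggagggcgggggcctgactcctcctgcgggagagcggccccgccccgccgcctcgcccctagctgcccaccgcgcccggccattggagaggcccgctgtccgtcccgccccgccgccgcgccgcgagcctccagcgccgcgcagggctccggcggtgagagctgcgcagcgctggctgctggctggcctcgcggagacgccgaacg

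The FZD1 window held 2 such cores, at -224 and -117 from the start, and the FZD4, FZD5, FZD8 and FZD9 windows held 0. Among 34796 RefSeq promoter windows of this length, 47.6% held at least 1 core. The GC box GGGCGG, the site of SP1-type factors, was found on either strand in all 5 windows and in 44.9% of all windows. FZD4 had 6 of them and FZD1 had 1. The GC content was 65.7% for FZD1 and 79.7% for FZD4, against a median of 58.7% over all windows. The AP-1 site TGANTCA and the E-box CACGTG were found in 0 of the 5 windows, and in 7.73% and 7.2% of all windows. No binding was measured in these cells.

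The other steps of the pathway were read from 7 lists of ligands, partners and signalling components. Of 117 probes for 90 measured genes, limma called 0, against 0.633% of all probes. At an unadjusted p under 0.05, 9 were higher and 21 lower, which is 25.6% of them, against 21.8% of all probes. Of all 28264 probes, 2834 were higher and 3337 lower at that threshold. Groups did not overlap for 61 probes, or 52.1%, against 53.6% of all probes, and the median difference was -0.03. The count of calls depended on the fit, with up to 19 of these probes (16.2%) called when the variance had an intensity trend and a robust prior, against 15.4% of all probes in that setting.

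Among 19 WNT ligand genes with 23 probes, 3 probes lay above the median probe level, and the list's median difference was -0.04. WNT5A, a ligand of polarity and calcium signalling, had 297 and 350 on its dimmer probe with PSC medium, against 493 and 596 in mock (difference -0.88 ± 0.15 SE, limma adjusted p = 0.0731). A second WNT5A probe had a difference of -1.02 ± 0.21 (adjusted p = 0.0926), so both probes pointed the same way without passing. WNT11, another polarity ligand, had -0.69 ± 0.16 (adjusted p = 0.105). The probe of WNT9B, at percentile 3.3 of probe level, had -1.04 ± 0.24 (adjusted p = 0.105), and a dim probe of WNT16 had 0.54 ± 0.17 (adjusted p = 0.16). The brighter WNT16 probe had 0.02 ± 0.19. For WNT secretion, WLS, the carrier that brings WNT proteins to the surface, had 0.29 ± 0.16 and 0.03 ± 0.16 on its 2 probes. NOTUM, the enzyme that removes the WNT lipid, had 0.26 ± 0.16.

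Of 12 co-receptor and partner genes with 19 probes, 0 passed, against 0.633% of all probes, and the median was 0. LRP5, a co-receptor of Frizzled proteins, gave 1112 and 937 with PSC medium, against 1476 and 1633 in mock (difference -0.72 ± 0.18 SE, adjusted p = 0.116). The tetraspanin TSPAN12, a partner of FZD4 in norrin signalling, had -0.78 ± 0.23 on one probe, and 0.38 ± 0.17 and 0.17 ± 0.16 on the other two. None of these probes passed (adjusted p = 0.15, 0.28 and 0.579, limma). The groups did not overlap on any of them, but neither did they for 53.6% of all probes. The probes thus gave no common direction, and differing shifts cannot be told from no change. The WNT5A receptor ROR1 had 0.52 ± 0.15 on its dimmest probe (adjusted p = 0.145), and 0.25 ± 0.21 and 0.18 ± 0.16 on its 2 brighter ones. The polarity co-receptor PTK7 had -0.57 ± 0.20 (adjusted p = 0.195). LRP6, named after its values were seen, had 0.14 ± 0.17 and 0 ± 0.26 on its 2 probes.

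Secreted and surface inhibitors, 15 genes with 20 probes, had a median of -0.08, and 5 probes lay above the median probe level. WIF1, a secreted inhibitor that binds WNT proteins, was named after its values were seen because its probe was very bright, at percentile 98.2. It gave 50225 and 64976 with PSC medium, against 46188 and 59258 in mock, and its difference of -0.01 ± 0.20 was far smaller than its standard error. KREMEN1, a DKK receptor, had -0.91 ± 0.23 on the probe with the smallest p (adjusted p = 0.116), and 0.19 ± 0.16 on its brightest probe. Its other two probes had -0.37 ± 0.15 and 0.18 ± 0.48. The LRP antagonist DKK1 was dim and had 0.89 ± 0.22 (adjusted p = 0.117). SFRP4, a decoy with a Frizzled-like domain, was dim and had -0.80 ± 0.21 (adjusted p = 0.124), and the surface inhibitor APCDD1 had -0.58 ± 0.19.

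Of 12 genes for R-spondins and receptor turnover with 16 probes, the median was -0.18. ZNRF3, the ligase that removes Frizzled proteins, had -0.51 ± 0.15 on its dimmer probe and 0.50 ± 0.17 on its brighter one, which gave 2130 and 2219 with PSC medium, against 1405 and 1455 in mock. Neither ZNRF3 probe passed (adjusted p = 0.141 and 0.185, limma), and they gave no common direction. USP8, a deubiquitinase of internalised receptors, had 0.79 ± 0.18 on its dimmer probe (adjusted p = 0.104), and -0.23 ± 0.24 with overlapping groups on its brighter one. The R-spondin gene RSPO2 had 0.44 ± 0.20 and RSPO3 had -0.36 ± 0.15.

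Of 13 Dishevelled and planar polarity genes with 15 probes, 11 probes lay above the median probe level. VANGL2, a core polarity membrane protein, gave 869 and 618 with PSC medium, against 1337 and 1663 in mock (difference -1.15 ± 0.22 SE, adjusted p = 0.0853). Its relative VANGL1 had -0.73 ± 0.18 (adjusted p = 0.115), with -0.37 ± 0.21 on a dimmer probe, and the polarity cadherin CELSR3 had -0.66 ± 0.15 (adjusted p = 0.106). PRICKLE1, a cytoplasmic polarity protein, had the opposite sign. It gave 12495 and 12786 with PSC medium, against 6613 and 7962 in mock (difference 0.72 ± 0.15 SE, adjusted p = 0.0924).

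For the beta-catenin and destruction complex list, 17 genes with 21 probes, the median was 0.03. AXIN1, the scaffold of the complex that degrades beta-catenin, gave 11566 and 12541 with PSC medium, against 5383 and 5958 in mock (difference 1.02 ± 0.17 SE, adjusted p = 0.0729). It passed in 6 of 13 other settings, which called 2.14% to 18.7% of the probes tested. The beta-catenin partner LEF1 had -0.67 ± 0.16 on one probe (adjusted p = 0.108) and -0.12 ± 0.16 on the other (adjusted p = 0.709). TCF7L2, another partner, had -0.67 ± 0.17 (adjusted p = 0.116). AXIN2, a feedback target of the pathway, had -0.49 ± 0.15 (adjusted p = 0.164). CTNNB1, the beta-catenin gene, named after its values were seen, had -0.45 ± 0.24 (adjusted p = 0.336).

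**Figure D4:**
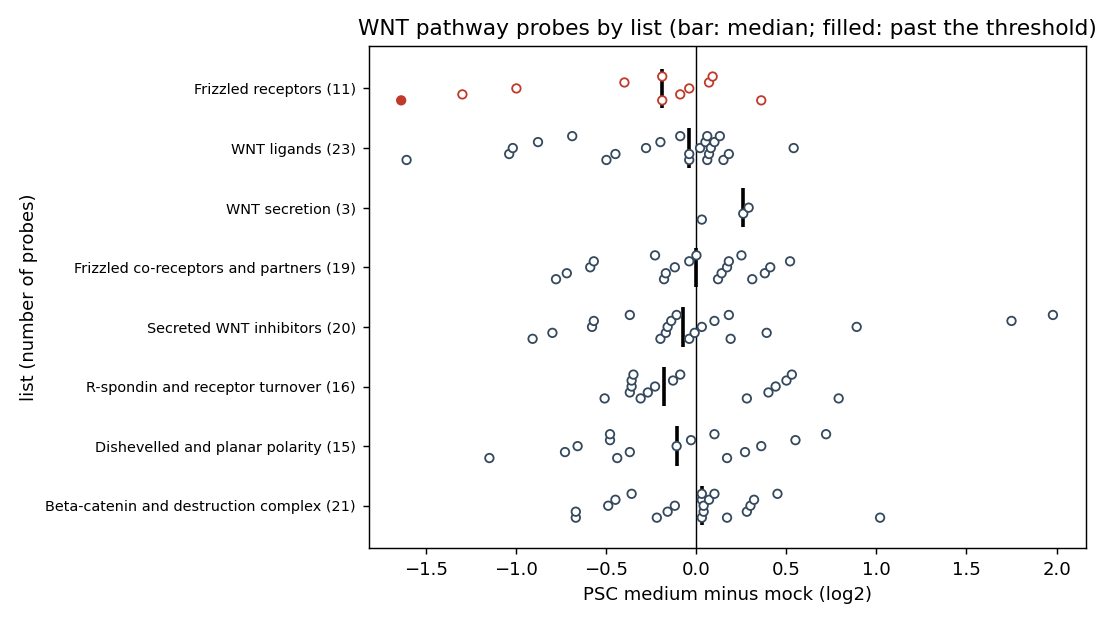
Difference between PSC medium and mock (log2) of every probe in the Frizzled list and in 7 lists of other WNT pathway genes; bars are list medians and filled points passed an adjusted p of 0.05 over all probes. The FZD1 probe is the filled point, and list medians lie between -0.19 and 0.26.

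The probes with the profile most like FZD1 were sought among 13137 named probes above the median level, by the root mean square distance between profiles over the 4 arrays, each centred on its own mean. The nearest was PROX1, a homeobox transcription factor gene, at a distance of 0.031 on the log2 scale and a difference of -1.66 ± 0.15 (SE). CACNA1A, a calcium channel gene, followed at 0.065 with -1.72 ± 0.16. TMEM170B at 0.099, the flippase gene ATP8A1 at 0.1 and the zinc finger gene CASZ1 at 0.11 had differences of -1.54, -1.64 and -1.52. With 4 arrays in 2 groups, such likeness mainly means an equal difference and a close agreement of the arrays within each group.

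**Figure D5:**
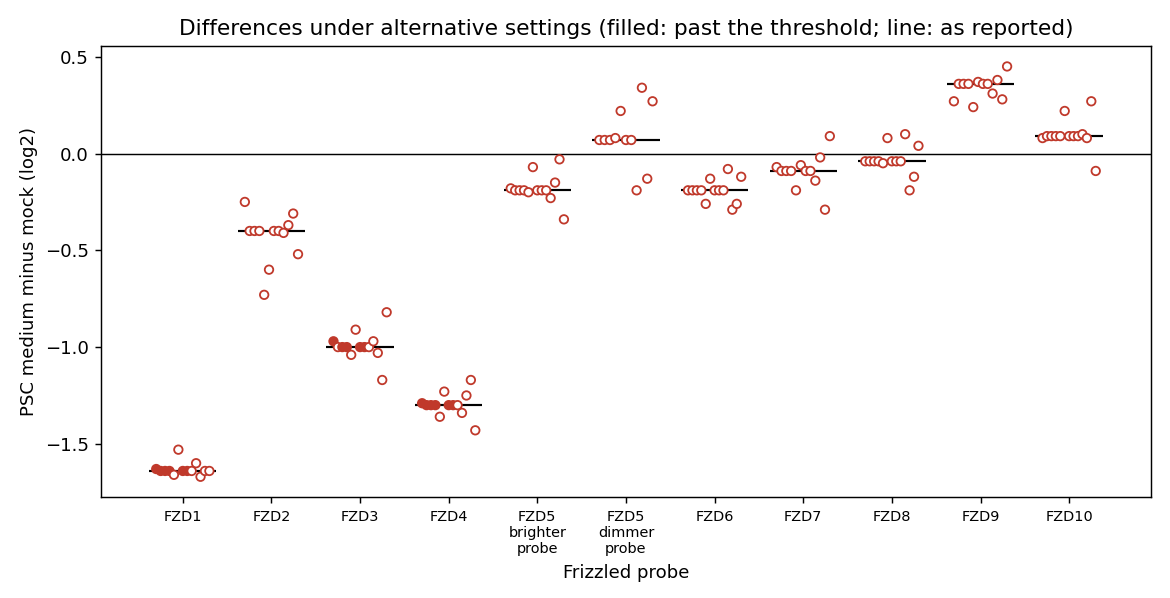
Difference between PSC medium and mock (log2) of each Frizzled probe under up to 13 other settings of the processing; filled points passed an adjusted p of 0.05 and lines mark the reported value. FZD1 stays between -1.67 and -1.53, FZD4 between -1.43 and -1.17 and FZD3 between -1.17 and -0.82, while the dimmer FZD5 probe, FZD7, FZD8 and FZD10 lie on both sides of 0.

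Across the other settings FZD1 had a negative difference in 13 of 13 and passed in 6. FZD4 was negative in 13 of 13 and passed in 6, and FZD3 was negative in 13 of 13 and passed in 5. The settings where these members passed called 2.14% to 18.7% of the probes tested, against 0.633% in the main setting. FZD2 was negative in 12 of 12 settings that kept it and FZD9 positive in 12 of 12, and both passed in 0.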

How the data were processed

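RNA of 4 QGP-1 samples (2 PSC medium, 2 mock) was amplified, labelled with Cy5 and read on 1-colour arrays, per the labels' protocols. The deposited values are linear probe intensities, whole numbers with some below 0, so a background had been subtracted; scanner, software and genome build are not given in the sources used here. Array medians differed by 0.325 (log2), so intensities were quantile normalized, floored at 1 and log2 transformed. All 25893 named probes matched RefSeq (GRCh38.p14) by Entrez ID. PSC medium was tested against mock by limma (version 3.58.1, R 4.3.3; lmFit and eBayes, two-sided; 2 residual and 3.25 prior degrees of freedom; Benjamini-Hochberg over 28264 probes). The number of arrays limits the precision. Members and lists were chosen with earlier results of these data known. Named were all Frizzled probes, up to 4 genes per pathway list by smallest p, and the 5 probes nearest to FZD1. Outside this rule, LRP6, WIF1 and CTNNB1 were named after their values were seen, and single marker genes were named as well. Simulated data for this comparison had 28264 probes with normal noise, of which 100 were changed by 1 (log2) and 100 by 2. Of these, 16% and 100% were recovered. Of 138 calls 22 were false, or 15.9%, above the adjusted p threshold of 0.05. In the measured data 21.8% of all probes had an unadjusted p under 0.05 in limma, so recovery and false calls there can differ. Alternatives covered normalization, floor, dim probes, probe choice, variance model, threshold, replicate block and each array left out. PORCN, TCF7 and PCSK1 were listed but not analysed here. Plots used matplotlib 3.10.9 (Python 3.11.15).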

Additional observations from a re-analysis of the deposited data

How the results depend on the processing

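The main setting called 179 probes (109 higher, 70 lower), 1 Frizzled probe and 0 pathway probes. The calls were 2426, 3 and 13, in that order, with an added constant of 50, 1625, 3 and 5 at a threshold of 0.1, 409, 2 and 1 with the brightest probe per gene, 1221, 3 and 5 with an intensity trend, and 4340, 3 and 19 with trend and robust prior. They were 2637, 3 and 10 without probes under the median level and 903, 3 and 3 without the 304 probes that had a floor value. Median centring gave 105, 0 and 0, and no normalization 172, 0 and 0. Of calls, 60.9% were higher in the main setting, 16.2% with median centring and 15.7% without normalization, and median centring moved the median difference of all probes to -0.11. Leaving out each array called 0 to 0 Frizzled probes and 0 to 0 probes in all, with 3648 to 5504 at an unadjusted p under 0.05; such a fit has 1 array in a group, assumed to vary like the other. The replicate block called 2, 0 and 0 (6281 at an unadjusted p under 0.05). Deviations of same-numbered arrays from their group means had a correlation of 0.06 over all probes after normalization. With 2 arrays per group the deviations of replicate 2 mirror those of replicate 1, so the value is the same for both numbers. It shows little variation shared by same-numbered arrays over all probes. Whether the numbers pair the arrays was not tested in another way. The main fit did not pair them. No Frizzled difference that was called changed sign. Low signal over background limits FZD2, FZD7 and FZD9. The cause of these shifts in calls was not tested. Where probes were left out, fewer probes were tested and the variance was also fitted anew, and the parts of these changes were not separated.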
